A study of Mus musculus with 6 samples.

Results

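The comparison set Ly6C-Selp+ against Ly6C+Selp- endothelial cells (ECs) of the mouse thymus, and its members were the 4 libraries that the labels named type III (Ly6C-Selp+) and type I (Ly6C+Selp-), 2 replicates each, out of 6 libraries in the series. The type II libraries (Ly6C+Selp+, 2 replicates) were kept in the fit, where they helped to estimate the spread, and are shown beside the results. All mice were wild-type C57BL/6 females of 4 to 6 weeks, and the labels gave no treatment or deletion. Thymi were digested with enzymes, stromal cells were enriched on a Percoll gradient, and live CD31+CD45-EpCAM- cells were split by P-selectin (Selp) and Ly6C. The labels stated a purity of at least 90% and did not say how many mice were pooled in a library or whether the 2 replicates came from separate mice, so the p-values measure the spread between these libraries only. RNA was sequenced in bulk, and the deposited values were FPKM, which are fragments scaled to the length of the transcript and to the depth of the library. In bulk RNA, fewer cells of a type and less RNA per cell cannot be told apart.

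Endothelium changes along the vessel tree. Arterial cells carry connexins and ephrin-B2, capillary cells carry genes for the handling of fatty acids and for tight barriers, and venular cells carry P-selectin and von Willebrand factor, which are stored together in Weibel-Palade bodies and take part in the capture of blood cells and platelets. In the thymus, progenitors from the bone marrow enter through vessels near the corticomedullary junction, and the study compared the subsets to characterise the cells of this entry site. Ly6C is a protein anchored to the cell surface by a glycolipid.

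The 6 libraries summed to between 221458 and 300932 FPKM. The interval that the authors' program gave with each value allowed the fragments behind it to be estimated, by taking the interval as counting error alone. These estimates summed to between 1452476 and 2423171 a library. They did not follow FPKM in every gene. From type I replicate 1 to type III replicate 1, Igfbp7 went from 3422 to 849.6 FPKM and its estimate from 1914 to 993 fragments. The library totals were 2061212 and 1499273. At 3 fragments, which is about the expected count that a listed 0 could hide, the median gene stood at 0.4 to 0.72 FPKM. Between 10461 and 11238 genes had an FPKM of 1 or more. The defining endothelial genes were high in all 4 libraries. VE-cadherin (Cdh5), the adhesion molecule of endothelial junctions, stood at 632 and 595 FPKM in type I and 414 and 486 in type III. Pecam1, which encodes the CD31 used in the sort, stood at 669 and 496 FPKM in type I and 867 and 811 in type III. Selp and Ly6c1 followed the sort, which used their proteins, and their differences are given as a description. Selp was 7.87 and 5.2 FPKM in type I and 526 and 657 in type III. Ly6c1 was 1009.8 and 692 FPKM in type I and 99.6 and 59.7 in type III, and the near-identical neighbour Ly6c2 could share its reads.

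Markers of other cells were present. The 14 pericyte and smooth muscle markers summed to 731 and 328 FPKM in type I and 205 and 330.1 in type III. Of the 13 tested, 4 were lower in type III, among them Notch3 and the receptor Pdgfrb, and Tagln was higher. The median log2 difference of the 13 was -1.71, and 10 had an unadjusted p under 0.05 in the limma test. Over all 11717 genes tested, 1648 had an unadjusted p under 0.05 in this test. The pericyte and smooth muscle sum held moves in both directions. Rgs5 was 346 and 114 FPKM in type I and 48.6 and 45.4 in type III (adjusted p = 0.0575). Acta2 was 13.7 and 7.53 FPKM in type I and 16.9 and 33.8 in type III (adjusted p = 0.177). The sum of the 18 macrophage, dendritic and B-cell markers was 482 and 77.4 FPKM in type I and 764 and 145 in type III, so that the libraries numbered 1 lay above those numbered 2. Thymocyte and T-cell markers, 14 in all, summed to 182 and 59.6 FPKM in type I and 277 and 129 in type III. None of the 14 tested members of the first list and the 12 of the second passed the limma test, and 2 and 1 had an unadjusted p under 0.05. The 12 thymic epithelial markers reached 103 and 42.2 FPKM in type I and 93.1 and 25.3 in type III, and the 12 fibroblast markers 293 and 179 FPKM in type I and 203 and 199 in type III. The 9 lymphatic markers summed to 30.5 and 25.3 FPKM in type I and 57.9 and 29.9 in type III, and none of the 6 tested passed the limma test (4 at an unadjusted p under 0.05). Flt4 was 20.04 and 16.7 FPKM in type I and 9.45 and 7.15 in type III (adjusted p = 0.0799), and Prox1 was 0.324 and 0.519 FPKM in type I and 3.05 and 3.22 in type III (adjusted p = 0.0577). Lyve1 and Mmrn1 were listed at 0 in both type I libraries. In type III, Lyve1 was at 12.4 and 1.07 FPKM and did not pass the test, and Mmrn1 was at 11.8 and 0.583 and below the filter. Ccl21a was listed at 0 in all libraries. Erythroid and platelet markers summed to 96.7 and 149 FPKM in type I and 1.4 and 14.3 in type III. Both rows of Hba-a1, the alpha globin gene, and Hbb-bt were lower in type III. These sums moved with the subset or with the replicate number, and are repeated beside the genes they share.

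**Figure D1:**
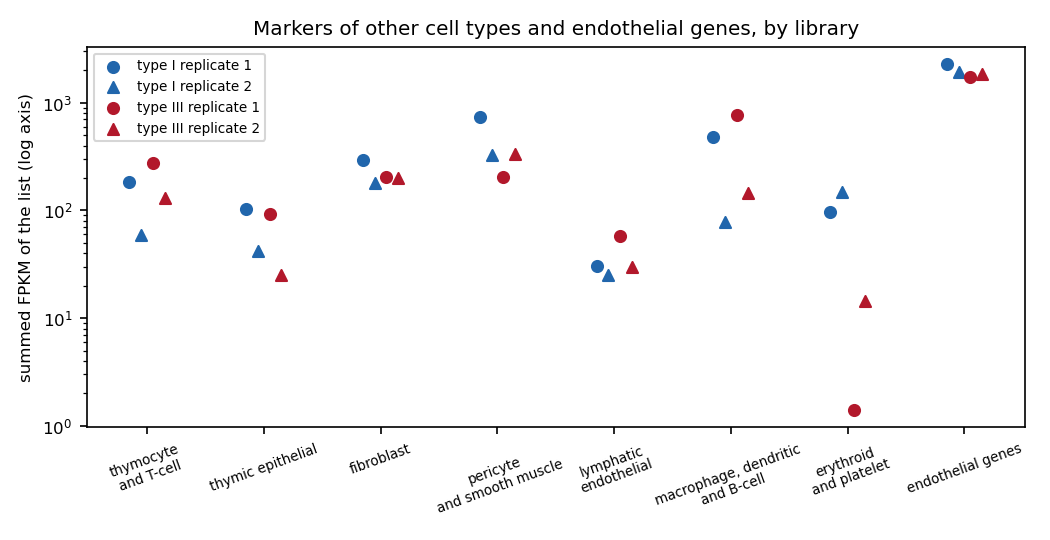
Summed FPKM of the marker lists of other cell types, and of 6 endothelial genes, in the 4 libraries, on a log axis. Immune and epithelial markers were higher in the libraries numbered 1 (circles) than in those numbered 2 (triangles), the erythroid sum was 96.7 and 149 in type I against 1.4 and 14.3 in type III, and the endothelial sum stayed between 1739 and 2269.5.

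Of 24457 gene rows on chromosomes, 11717 were tested, and 485 of these differed between type III and type I at an adjusted p under 0.05, which is 4.14%. Of these, 245 were higher in type III (2.09%) and 240 were lower (2.05%). The changes of the called genes were large, and a call from 2 libraries per subset needs a large difference. The median log2 difference was 1.98 among the genes that rose and fell by 1.84 among those that fell, 33 genes rose by more than 3 and 36 fell by more than 3, and no called gene moved by less than 0.97. The 2 libraries of type III lay outside the range of the 2 libraries of type I for all 485 called genes, as they did for 37.9% of all genes tested. The median over all genes was 0.08, and it was -0.03 after each library was scaled to the same sum. Under that scaling 698 genes were called, 298 of them higher and 400 lower. Without type I replicate 1 the split was 231 higher and 113 lower, 67.2% higher against 50.5% with all libraries. For 464 of the 485 genes (95.7%), the mean of the type II libraries lay between the means of the other two subsets. This share was not computed over all genes tested, and choosing genes for a gap between types I and III favours such an order. With 2 libraries against 2, an exact permutation test of a single gene cannot go below a p of 0.33, and the calls rest on the spread that limma shares across genes.

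**Figure D2:**
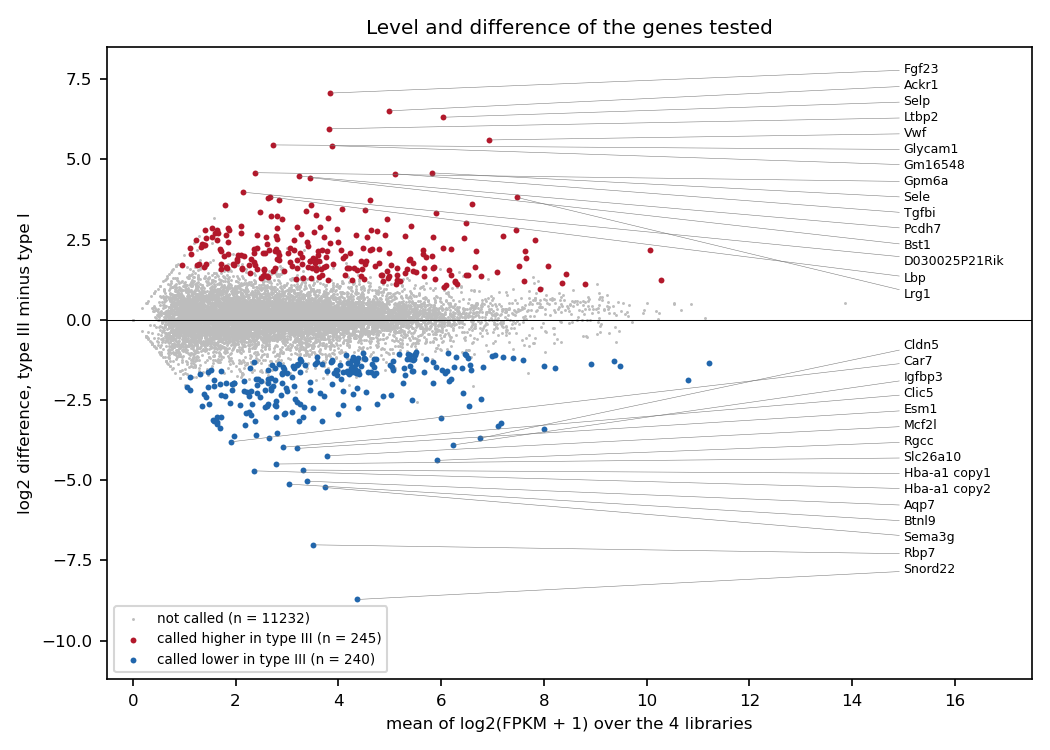
Mean of log2(FPKM + 1) over the 4 libraries (x axis) against the log2 difference of type III minus type I (y axis) for the 11717 genes tested, with the 245 genes called higher in red and the 240 called lower in blue. The 15 largest rises and 15 largest falls are named, among them Fgf23 at 7.06 and Sema3g at -5.23, and the lowest point, Snord22, rests on 1 and 2 fragments in type I.

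All 485 had the same sign when type III replicate 1 was set against type I replicate 1 and when replicate 2 was set against replicate 2, a property that a call from these libraries nearly requires. Across the called genes, the difference within replicate 1 and the difference within replicate 2 had a Pearson r of 0.97, against 0.63 across all genes tested. Both are descriptions across genes, which are not independent replicates, and the choice of called genes raised the first. Medians over all genes were -0.01 within replicate 1 and 0.17 within replicate 2.

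**Figure D3:**
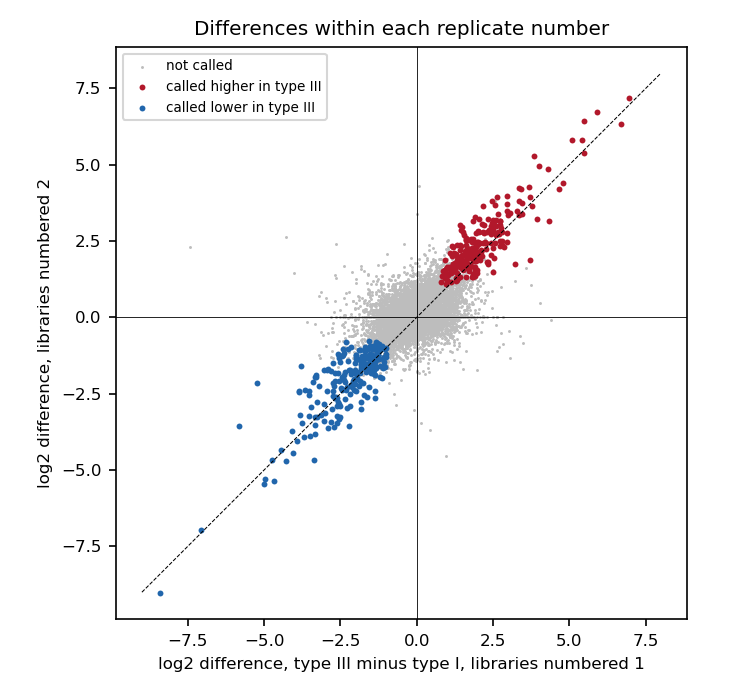
Log2 difference of type III minus type I in the libraries numbered 1 (x axis) against that in the libraries numbered 2 (y axis), a point for each gene tested, with the line of equal values dashed. The called genes, red and blue, lay at the upper right and the lower left, and uncalled genes (grey) spread around 0.

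The largest rise was in Fgf23, a hormone made in bone that lowers phosphate in the blood. Its levels were 0.255 and 0.204 FPKM in type I and 155 and 172 in type III, with the type II libraries at 26.1 and 37.4. The groups were far apart, with a log2 difference of 7.06 (SE 0.27, adjusted p = 3.80e-06). In the libraries numbered 1 it was 6.96, and in those numbered 2 it was 7.17. The gene lies at chr6:127022920-127032314 in the mm9 build. Vwf, which encodes the von Willebrand factor of Weibel-Palade bodies, reached the highest level of the 15 largest rises, at 14.9 and 18.5 FPKM in type I and 669 and 1095 in type III. Its mean was 52.7-fold higher in type III, and the log2 difference was 5.60 (SE 0.32, adjusted p = 3.79e-05). Ltbp2, which encodes a matrix protein related to the latent TGF-beta binding proteins, rose from 1.14 and 0.518 FPKM to 93.7 and 130.3, and Tgfbi, a secreted matrix protein induced by TGF-beta, from 11.1 and 3.19 to 171 and 160.5. The groups overlapped for neither gene, which the rule for naming them required.

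Several of the other large rises encode surface and secreted proteins. Pcdh7, a protocadherin, stood at 1.51 and 0.566 FPKM in type I and 39 and 47.8 in type III. Gpm6a, a membrane glycoprotein best known from neurons, was listed at 0 in type I replicate 2 and stood at 0.115 in type I replicate 1, against 29.5 and 20.02 in type III. Lbp, which carries bacterial lipopolysaccharide to its receptor, rose from 0.822 and 0.549 to 22.8 and 22.9 FPKM, and Lrg1, a secreted glycoprotein that modulates TGF-beta signalling in endothelium, from 52.6 and 40.8 to 576 and 767. Their log2 differences were 4.48, 4.58, 3.83 and 3.81, and none of these 4 genes lost its call when any 1 library was left out. The remaining rises were in the homing genes Ackr1 (6.51), Glycam1 (listed at 0 in both type I libraries), Sele (4.58) and Bst1 (4.43), in Selp, and in a pair of transcripts that overlap other genes of the list. Gm16548 lies on the minus strand across the end of Selp, and D030025P21Rik on the plus strand across the start of Ltbp2. The files do not state a strand for the libraries, so reads of each pair cannot be told apart. Gm16548 stood at 1.23 and 1.23 FPKM in type I and 97.6 and 92.1 in type III and D030025P21Rik at 0.254 and 0 FPKM in type I and 15 and 18.3 in type III.

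**Figure D4:**
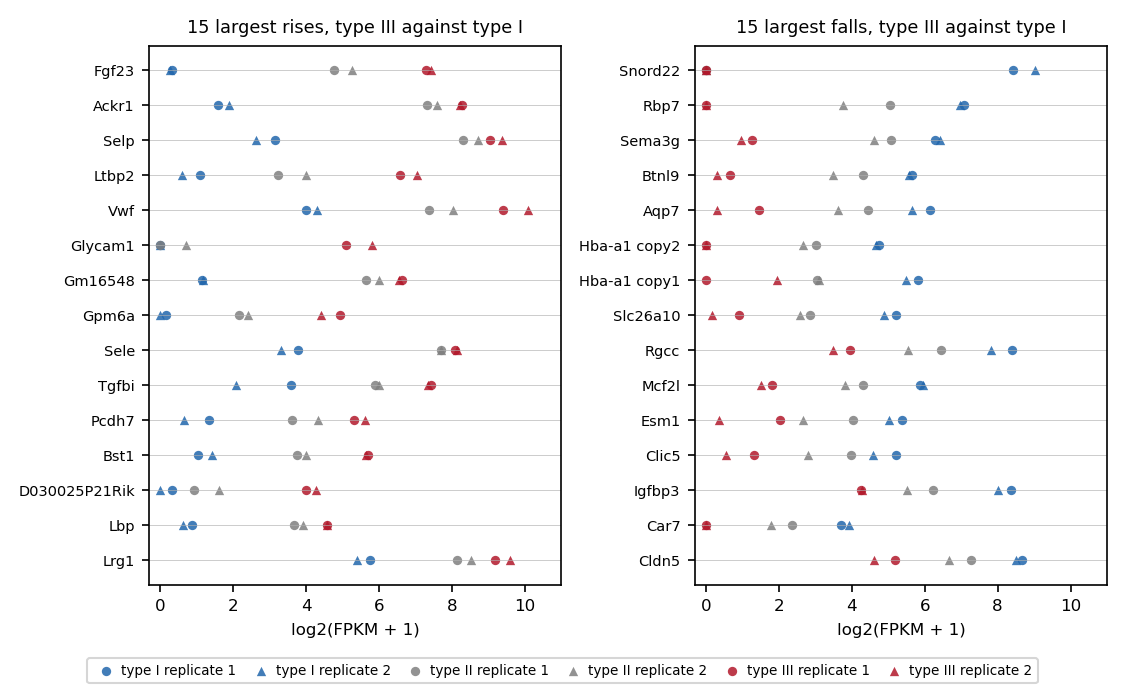
Level of the 15 largest rises (left) and 15 largest falls (right) in each of the 6 libraries, as log2(FPKM + 1), with circles for replicate 1 and triangles for replicate 2. Type I (blue) and type III (red) did not overlap for any gene shown, which the rule for naming these genes required. The type II mean (grey) lay between them or equal to one of them. Log2 differences were, for example, 7.06 for Fgf23 on the left and -5.23 for Sema3g on the right.

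The vessel selectins Sele and Selp are neighbours on chromosome 1, and the letters before their start sites are shown because both hold the motif TGANTCA. It is a loose form of the AP-1 consensus in which N is any base. The match was TGACTCA in Sele and TGATTCA in Selp, and binding by AP-1 proteins was not tested. The motif was more frequent in the promoters of genes that rose than in those of all genes tested. Promoter windows came from RefSeq (GRCm38.p6), each running from 250 bases before to 50 bases after a start site. The 150 bases before the start site are printed, 5′ to 3′ on the gene's strand, with the match in capitals. Sele is at chr1:164048084-164048233 and Selp at chr1:164115114-164115263, both on the plus strand.
Sele: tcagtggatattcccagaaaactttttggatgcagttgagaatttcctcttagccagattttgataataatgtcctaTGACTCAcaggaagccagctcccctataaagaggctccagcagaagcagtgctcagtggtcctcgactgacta
Selp: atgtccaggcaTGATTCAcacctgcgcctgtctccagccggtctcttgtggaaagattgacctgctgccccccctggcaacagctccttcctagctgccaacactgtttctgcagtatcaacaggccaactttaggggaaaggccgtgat
The third stretch belongs to Rgcc, a regulator of the cell cycle in endothelium that fell, at chr14:79301636-79301785 on the minus strand. Its capitals mark a match to the NF-kB consensus, which was more frequent in the promoters of genes that fell.
Rgcc: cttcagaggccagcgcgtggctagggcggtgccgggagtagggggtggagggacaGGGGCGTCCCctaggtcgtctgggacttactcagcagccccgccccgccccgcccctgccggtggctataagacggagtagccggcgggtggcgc
Searching both strands, TGANTCA was found in 25 of the 178 genes with a window that rose (14.04%), 11 of 164 that fell (6.71%), 6.19% of 8803 genes tested and 8.97% of all 27025 genes in the table. The NF-kB consensus was found in 11.2% of the genes that rose, 18.9% of those that fell, 12.6% of those tested and 9.55% of all. The ETS letters CCGGAA were found in 12.4% of the genes that rose and 11.6% of those that fell, against 31.1% of the genes tested. Other motifs were searched too, and those marked above were chosen from all of them. In genes that rose, fell and were tested, the TATA box was in 10.1%, 14.6% and 8.77%. GATA letters were in 10.1%, 6.1% and 7.76%, and RBPJ letters in 8.43%, 7.32% and 7.08%. The E-box was in 10.1%, 10.4% and 11.8%, and the interferon element in 4.49%, 3.05% and 3.92%. Windows of called genes held a median of 15 CG dinucleotides in either direction, against 20 over the genes tested. These shares are descriptions of letters in the windows and were not tested.

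Among the largest falls, Rbp7, a retinol-binding protein, was at 133 and 124 FPKM in type I and listed at 0 in both type III libraries, with type II at 32.1 and 12.5. Car7, a carbonic anhydrase, was also listed at 0 in both type III libraries, against 11.9 and 14.1 in type I. Sema3g, a secreted semaphorin of arterial endothelium, fell from 76.6 and 84.4 to 1.4 and 0.965, which is 68-fold lower in the mean (log2 difference -5.23, SE 0.28, adjusted p = 2.99e-05). Btnl9, a butyrophilin-like membrane protein, fell from 48.9 and 46.7 to 0.591 and 0.229 FPKM. The groups did not overlap, which the naming rule required, and the type I replicates of these 4 genes were close to each other.

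Igfbp3, which binds insulin-like growth factors, fell from 326 and 256 FPKM to 18.1 and 18.6, and Rgcc from 337 and 223 to 14.6 and 10.2. Esm1, the proteoglycan endocan secreted by sprouting endothelium, was 40.5 and 31.3 FPKM in type I and 3.05 and 0.272 in type III, and its log2 difference was -3.36 between the libraries numbered 1 and -4.67 between those numbered 2. Clic5, a chloride intracellular channel protein, fell from 36.3 and 23 to 1.49 and 0.456. Slc26a10, of the SLC26 anion transporter family, was 35.8 and 28.5 FPKM in type I and 0.886 and 0.128 in type III. All of these genes passed with any 1 library left out. The first row of Hba-a1, at chr11:32183672-32184486 in mm9, stood at 55.6 and 43.8 FPKM in type I and 0 and 2.84 in type III, and the second at 26 and 24.4 in type I and at 0 in type III. They are near-identical copies between which reads could be split, and globin is the defining RNA of erythroid cells, whose summed markers are given above. Whether red cells in the sort account for any of it was not tested. The fall of largest fitted size, Snord22, is a small nucleolar RNA of 126 bases listed at 339 and 521 FPKM in type I and at 0 in the other 4 libraries. These FPKM values stood for 1 and 2 fragments, so no fold is given. Among the called genes, 2 had at most 3 fragments in every library of the comparison and 6 had fewer than 10, while the median called gene had 279 in its highest library.

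The gene lists that follow are described by the number of members tested, the number called in each direction and the median log2 difference, beside 2.09% called higher, 2.05% called lower and a median of 0.08 over all genes tested. Parentheses after a median give its range with 1 library left out, and the library is named where the median changed sign or moved by more than 1.5 times. The lists were drawn up with earlier results of these data known.

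**Figure D5:**
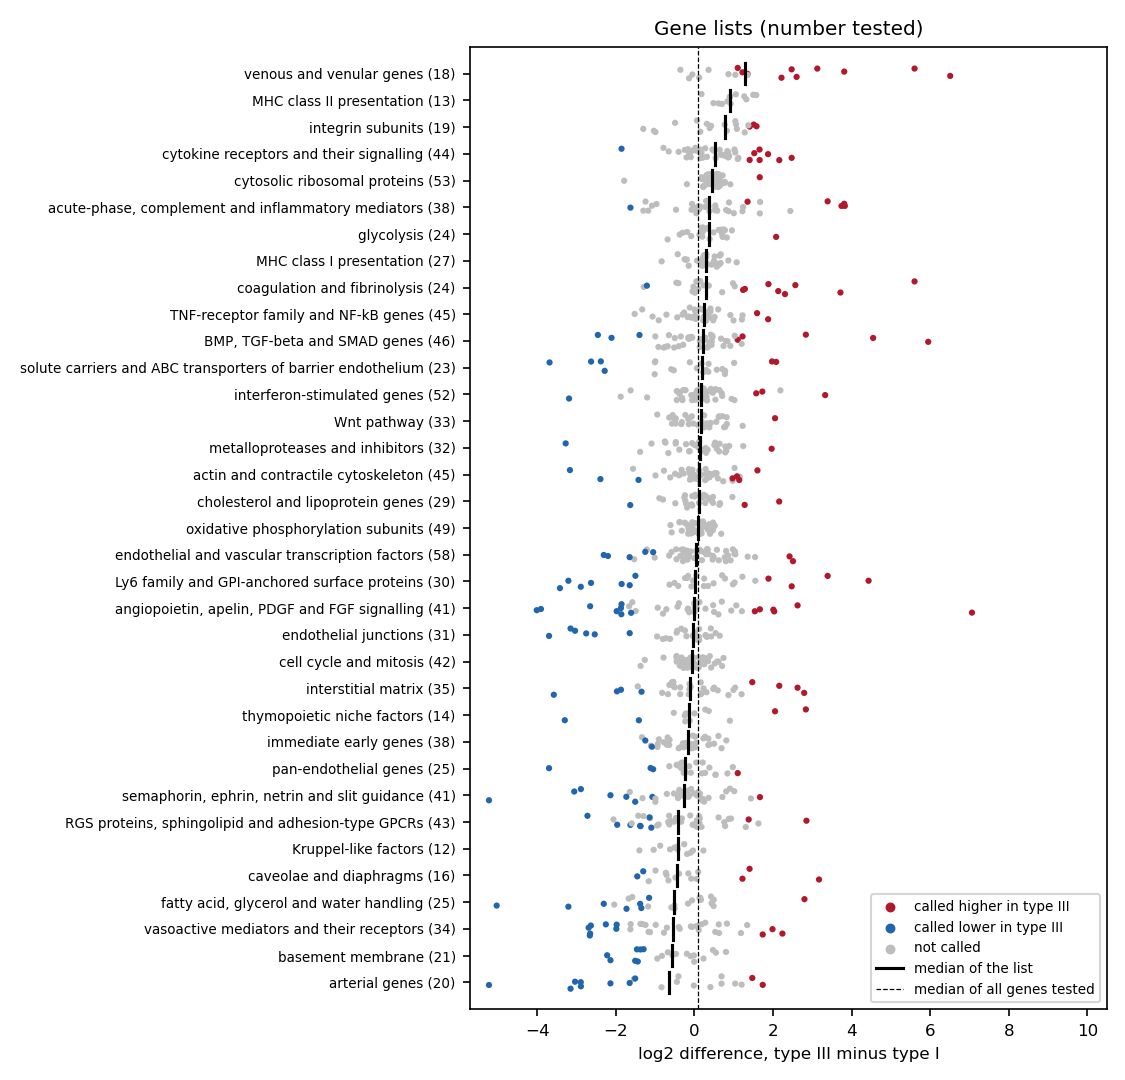
Log2 difference of type III minus type I for each tested member of the 35 gene lists, ordered by the median of the list (black bars), with called genes in red and blue and the median of all genes as a dashed line. The median was 1.29 for venous and venular genes and -0.64 for arterial genes, and the order of the lists changed with 1 library left out.

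Venous and venular genes had a median of 1.29 (1.15 to 1.504), and 10 of the 18 tested rose while none fell. Besides Vwf, Lrg1 and Ackr1, the members that rose included Ctsh, a lysosomal cysteine protease, at 16.8 and 5.03 FPKM in type I and 105 and 76.4 in type III, and Csrp2, a LIM-domain protein, at 22.3 and 10.1 FPKM in type I and 105 and 88.4 in type III. Il6st, the gp130 subunit shared by receptors of the interleukin-6 family, rose from 118 and 77.5 to 543 and 527. The replicates of type III were close for Il6st, and those of type I were less even for Ctsh. The count was 10, 6, 6 and 6 without type I replicate 1, type I replicate 2, type III replicate 1 and type III replicate 2.

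Arterial genes had a median of -0.64 (-1.02 without type III replicate 1 to -0.34 without type III replicate 2), with 8 of 20 lower and 2 higher. The connexins Gja4 and Gja5, which form gap junctions of arterial endothelium, both fell. Gja4 went from 28.1 and 27 FPKM to 1.51 and 3.83, and Gja5 from 13.6 and 15.3 to 1.22 and 0.354. Unc5b, a netrin receptor, was 20.4 and 24.2 FPKM in type I and 3.61 and 1.14 in type III. Alpl, the tissue alkaline phosphatase, fell from 12.5 and 11.8 to 1.34 and 0.334, and Efnb2, which encodes the arterial ephrin-B2, from 44.9 and 39.1 to 7.77 and 9.86. The members that rose, named after their values were seen, were elastin (Eln, 1.47) and endothelin-1 (Edn1, 1.74). Gja5 lost its call with any library but type III replicate 1 left out (adjusted p up to 0.0808), and Unc5b lost its call without type I replicate 2 (adjusted p 0.051). The count was 8, 8, 8 and 5 without type I replicate 1, type I replicate 2, type III replicate 1 and type III replicate 2.

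Of 25 genes shared by most endothelium, 3 fell and 1 rose, with a median of -0.23 (-0.24 to -0.08 without type I replicate 1, -0.10 without type III replicate 1). Cldn5, the main claudin of tight endothelial junctions, was the exception in size, at 409.7 and 364 FPKM in type I and 35.4 and 23.4 in type III (log2 difference -3.70, SE 0.29, adjusted p = 2.52e-04). Cd93, a C-type lectin-like receptor, was 216 and 174 FPKM in type I and 94.3 and 83.9 in type III, and Sox18, a transcription factor, 95.4 and 104 FPKM in type I and 42.6 and 53.1 in type III. Endoglin (Eng), a TGF-beta co-receptor, rose from 298 and 305 to 564 and 748. Cldn5 passed with any 1 library left out, and the other 3 did not. Cd93 lost its call with any 1 library left out (adjusted p up to 0.203), and Sox18 lost its call with any 1 library left out (adjusted p up to 0.319). Eng lost its call with any 1 library left out (adjusted p up to 0.242). The Eng call was also lost under each of the other scalings.

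Genes for fatty acid and glycerol handling were called lower in 7 of 25 cases and higher in 1, with a median of -0.51 (-0.66 to -0.36). Aqp7, a channel for water and glycerol, fell from 69.4 and 49.7 FPKM to 1.73 and 0.223. Gpihbp1, which carries lipoprotein lipase across the capillary endothelium, fell from 489.6 and 392 to 59.3 and 36.5 (log2 difference -3.21, SE 0.31, adjusted p = 6.70e-04). The transcription factors Tcf15 and Pparg, which act in fatty acid uptake, both fell. Tcf15 was 51.3 and 34.7 FPKM in type I and 8.04 and 7.45 in type III. Pparg was 29.5 and 25.8 FPKM in type I and 8.63 and 6.72 in type III, and the lipase gene Lipe was 41.3 and 38.1 FPKM in type I and 14 and 15.3 in type III. Vldlr, a lipoprotein receptor, went the other way, from 0.278 and 0.0953 to 7.91 and 6.63. Fabp4 and Fabp5, which encode neighbouring fatty acid binding proteins, fell by 1.35 and 1.15 on the log2 scale. Pparg lost its call without type III replicate 2 (adjusted p 0.0691), and Lipe lost its call with any 1 library left out (adjusted p up to 0.115). The count was 5, 8, 5 and 4 without type I replicate 1, type I replicate 2, type III replicate 1 and type III replicate 2.

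Cholesterol and lipoprotein genes were called in 3 of 29 cases. Apoe, the main apolipoprotein made by many tissues and by macrophages, was 833 and 308 FPKM in type I and 2397 and 2143 in type III, and Abca1, the cholesterol exporter, 38.2 and 35.5 FPKM in type I and 83.8 and 98.5 in type III. Pltp, a phospholipid transfer protein, fell from 107 and 72.7 to 28.7 and 26.9. Type I replicate 2 had much less Apoe than type I replicate 1, and macrophage markers were also lower there. Their part in the Apoe values was not tested. Apoe lost its call without type III replicate 1 or type III replicate 2 (adjusted p up to 0.119), and Abca1 lost its call with any library but type I replicate 1 left out (adjusted p up to 0.139). Pltp lost its call without type III replicate 1 or type III replicate 2 (adjusted p up to 0.0684). The cholesterol count was 3, 2, 0 and 0 without type I replicate 1, type I replicate 2, type III replicate 1 and type III replicate 2. Of 23 solute carriers and transporters, 2 rose and 4 fell. Their median was 0.182 (-0.027 without type III replicate 1 to 0.345 without type I replicate 1, -0.025 without type I replicate 2). Slc2a1, the glucose transporter GLUT1, rose from 12.9 and 15.9 FPKM to 56 and 72.9, and Slco2a1, the prostaglandin transporter, from 7.56 and 8.05 to 35 and 32.3. The taurine transporter Slc6a6 fell from 65.5 and 66 to 12.5 and 7.62, and Slc9a3r2, a scaffold protein for membrane transporters, from 202 and 175 to 40.5 and 35.4. Kcnj8 and Abcc9, the neighbouring genes for subunits of a potassium channel, fell by 3.69 and 2.38 on the log2 scale. Both are among the pericyte and smooth muscle markers, whose sum was 731 and 328 FPKM in type I and 205 and 330.1 in type III. The median log2 difference of the 13 tested markers was -1.71. The part of pericytes in this result was not tested. Kcnj8 lost its call without type I replicate 1 or type III replicate 1 (adjusted p up to 0.0981), and Abcc9 lost its call with any library but type I replicate 2 left out (adjusted p up to 0.091).

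Coagulation and fibrinolysis genes were called higher in 8 of 24 cases and lower in 1, with a median of 0.30 (0.15 without type I replicate 2 to 0.63 without type I replicate 1, 0.55 without type III replicate 2). F8, the clotting factor that circulates bound to von Willebrand factor, rose from 1.26 and 0.755 FPKM to 30.1 and 21, and its groups were well apart (log2 difference 3.72, SE 0.33, adjusted p = 5.29e-04). Thbs1, the matrix glycoprotein thrombospondin-1, was 52.4 and 43.4 FPKM in type I and 185 and 244 in type III. Procr, the endothelial receptor of protein C, was 27.7 and 15.7 FPKM in type I and 75.3 and 84.6 in type III, and Tfpi2, a protease inhibitor, 4.88 and 2.93 FPKM in type I and 25.7 and 20.2 in type III. Serpinb6b, a serine protease inhibitor, was uneven in both subsets, at 24.2 and 7.64 FPKM in type III against 2.5 and 0.77 in type I. In type II it was 1.53 and 1.95. The macrophage, dendritic and B-cell markers summed to 482 and 77.4 FPKM in type I, 198 and 69.4 in type II and 764 and 145 in type III. The part of such cells in the Serpinb6b values was not tested. Thrombomodulin (Thbd), which turns thrombin to anticoagulant action and was named after its value was seen, fell by 1.21 on the log2 scale. Procr lost its call without type III replicate 1 or type III replicate 2 (adjusted p up to 0.0754), and Tfpi2 lost its call with any library but type I replicate 1 left out (adjusted p up to 0.0964). Serpinb6b lost its call without type I replicate 2 or type III replicate 1 (adjusted p up to 0.198). The count was 8, 5, 3 and 4 without type I replicate 1, type I replicate 2, type III replicate 1 and type III replicate 2.

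Vasoactive mediators and their receptors were called lower in 7 of 34 cases and higher in 3, with a median of -0.55 (-0.75 to -0.38). Apln, the peptide apelin of endothelial tip cells, fell from 15.7 and 16.4 to 1.51 and 1.93 FPKM. Ramp3, a subunit of adrenomedullin receptors, was 20.04 and 13.5 FPKM in type I and 2.64 and 1.01 in type III. Nos2, the inducible nitric oxide synthase, fell from 11.3 and 8.28 to 0.939 and 0.478, and Adora2a, an adenosine receptor, from 11.6 and 7.22 to 0.955 and 1.33. Agtr1a, the angiotensin II receptor, was 9.03 and 3.8 FPKM in type I and 0 and 0.248 in type III, with type I replicate 2 at less of it than type I replicate 1. Its type II libraries stood at 10.1 and 3.36 FPKM. The pericyte marker Kcnj8 was 36.6 and 12.6 FPKM in type I, 26.5 and 10.7 in type II and 0 and 2.08 in type III. The part of pericytes in the Agtr1a values was not tested. Ptgs1, a cyclooxygenase of prostaglandin synthesis, rose from 11.5 and 7.37 to 51 and 43.9, and the related Ptgs2 by 1.99 on the log2 scale. Nos2 lost its call without type I replicate 1 (adjusted p 0.057), and Adora2a lost its call without type I replicate 1 or type III replicate 1 (adjusted p up to 0.0704). Agtr1a lost its call with any library but type I replicate 2 left out (adjusted p up to 0.153). The count was 6, 10, 6 and 6 without type I replicate 1, type I replicate 2, type III replicate 1 and type III replicate 2.

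Basement membrane genes fell and none rose, 7 of 21, with a median of -0.56 (-0.91 without type III replicate 2 to -0.43). The pericyte and smooth muscle markers summed to 731 and 328 FPKM in type I and 205 and 330.1 in type III. The median log2 difference of the 13 tested markers was -1.71, and the part of pericytes in the basement membrane values was not tested. Sparc, a collagen-binding matrix protein, stood at 1305 and 1065 FPKM in type I and 424 and 444 in type III. Col4a2, a chain of the network-forming type IV collagen, stood at 716 and 840.1 FPKM in type I and 254 and 352 in type III. For both, each type III library was below each type I library. Of the laminin chain genes, Lama4 was 57.2 and 50.7 FPKM in type I and 21 and 17.1 in type III, and Lamb1 was 66.4 and 62.7 FPKM in type I and 22.9 and 21.3 in type III. Lama3, another laminin chain, was 11.1 and 14.1 FPKM in type I and 2.63 and 1.61 in type III. Nid2, which links laminin to collagen, fell from 34.1 and 37.1 to 7.4 and 6.35 and kept its call with any 1 library left out, but for the other named members the call depended on the libraries. Sparc lost its call without type III replicate 1 or type III replicate 2 (adjusted p up to 0.102), and Col4a2 lost its call without type I replicate 2 or type III replicate 1 (adjusted p up to 0.162). Lama4 lost its call with any 1 library left out (adjusted p up to 0.163), and Lamb1 lost its call with any 1 library left out (adjusted p up to 0.0937). Lama3 lost its call without type I replicate 2 or type III replicate 2 (adjusted p up to 0.0797). The count was 5, 2, 2 and 2 without type I replicate 1, type I replicate 2, type III replicate 1 and type III replicate 2.

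The interstitial matrix list was split, with 4 higher and 4 lower of 35. Bgn, the proteoglycan biglycan, rose from 79.7 and 54.9 to 467 and 463 FPKM (log2 difference 2.79, SE 0.26, adjusted p = 5.80e-04). Ctgf, a matricellular protein induced by TGF-beta and stretch, rose from 14.5 and 8.35 to 62.2 and 86.3, and Aebp1, a collagen-binding protein, from 10.8 and 10.3 to 41 and 62.3. Igfbp7, the most abundant gene of the list, fell from 3422 and 3403 to 849.6 and 1026. The transmembrane collagen Col13a1 fell from 17.6 and 17 to 0.825 and 0.287, and Col8a1 from 7.52 and 6.03 to 1.18 and 0.79. Fibroblast collagens such as Col1a1, at 43.4 and 32.9 FPKM in type I and 24 and 35.5 in type III, did not pass the test. Of 32 metalloproteases and inhibitors, Timp2 rose from 32.3 and 19.7 to 104 and 98.9 and Timp4 fell from 15 and 11.4 to 1.11 and 0. Among 19 integrin subunits 3 were called, all higher, with a list median of 0.77 (0.37 without type I replicate 2 to 1.04, 0.47 without type III replicate 1). Itgb4 was 15.8 and 19 FPKM in type I and 38.7 and 67.6 in type III, Itga3 10.1 and 9.32 FPKM in type I and 24.3 and 30.7 in type III and Itga2 0.872 and 0.952 FPKM in type I and 5.64 and 3.93 in type III. The Itga3 and Itgb4 calls were also lost under each of the scalings tried. Col8a1 lost its call with any 1 library left out (adjusted p up to 0.104), and Itgb4 lost its call with any library but type III replicate 1 left out (adjusted p up to 0.213). Itga3 lost its call with any 1 library left out (adjusted p up to 0.178), and Itga2 lost its call with any 1 library left out (adjusted p up to 0.271). The interstitial matrix count was 7, 6, 6 and 5 and the integrin count 0, 0, 1 and 0 without type I replicate 1, type I replicate 2, type III replicate 1 and type III replicate 2.

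Junction genes fell and none rose, 6 of 31, with a median of -0.04 (-0.35 without type I replicate 2 to 0.01 without type I replicate 1, -0.09 without type III replicate 1 and -0.14 without type III replicate 2), so that the fall was in a few members. Beside Cldn5 and the connexins, Jup, the plakoglobin that links cadherins to the cytoskeleton, fell from 55.7 and 50.7 to 8.32 and 5.92 FPKM. Cldn15, another claudin, was 18.2 and 13.5 FPKM in type I and 3.25 and 0.941 in type III, and Cdh13, a cadherin anchored by a glycolipid, 111 and 128 FPKM in type I and 32 and 43.5 in type III. Cldn15 lost its call with any library but type III replicate 1 left out (adjusted p up to 0.073), and Cdh13 lost its call without type III replicate 1 (adjusted p 0.0714). Of 16 genes of caveolae and diaphragms, 3 rose and 2 fell, while 11 of the 16 had a log2 difference below 0. The median of this list was -0.44 (-0.59 to -0.24 without type I replicate 1). Ehd3, an ATPase that shapes membranes, rose from 3.96 and 3.32 to 38.6 and 42.9, and its relative Ehd4 from 60.5 and 50.4 to 141 and 155. Plvap, which builds the diaphragms of fenestrae and caveolae, was 809.7 and 805 FPKM in type I and 1649.7 and 2158 in type III. Cav1, the coat protein of caveolae, fell from 529 and 343 to 176 and 137, and Dysf, a membrane repair protein, from 49.1 and 54.2 to 19.8 and 20.9. Ehd4 lost its call without type III replicate 1 or type III replicate 2 (adjusted p up to 0.0867), and Plvap lost its call with any 1 library left out (adjusted p up to 0.199). Cav1 lost its call with any library but type I replicate 2 left out (adjusted p up to 0.171), and Dysf lost its call with any library but type I replicate 1 left out (adjusted p up to 0.136). The count for caveolae and diaphragms was 3, 3, 1 and 1 without type I replicate 1, type I replicate 2, type III replicate 1 and type III replicate 2.

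Cytokine receptors were called higher in 7 of 44 cases and lower in 1, with a median of 0.52 (0.22 without type I replicate 2 to 0.73). With Il6st rose Lifr, the leukaemia inhibitory factor receptor that pairs with it, from 22.2 and 19.1 to 78.2 and 78 FPKM, and Il27ra, which also pairs with it, from 3.11 and 3.22 to 16.9 and 18.4. Csf2rb2, a beta chain of the interleukin-3 receptor and a close relative of Csf2rb with which reads could be shared, was 63.8 and 49.6 FPKM in type I and 170.2 and 189.6 in type III. The leptin receptor gene Lepr was 5.07 and 2.81 FPKM in type I and 15.8 and 12.8 in type III. The member that fell was Pdgfrb, a pericyte marker, at 39 and 24.2 FPKM in type I and 6.4 and 9.43 in type III. Csf2rb2 lost its call without type III replicate 2 (adjusted p 0.0599), and Lepr lost its call with any library but type I replicate 1 left out (adjusted p up to 0.159). Pdgfrb lost its call without type I replicate 1 or type III replicate 1 (adjusted p up to 0.111). The count was 10, 6, 4 and 4 without type I replicate 1, type I replicate 2, type III replicate 1 and type III replicate 2.

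Among 38 acute-phase, complement and inflammatory genes, 5 rose and 1 fell, with a median of 0.37 (-0.16 without type I replicate 2 to 1.08 without type I replicate 1, 0.16 without type III replicate 1 and 0.78 without type III replicate 2). Csf3, the granulocyte colony-stimulating factor, rose from 3.02 and 10.1 to 79.9 and 98.2 FPKM. Cd55, which protects cells from complement, rose from 3.43 and 1.32 to 42.2 and 25.1, with type III replicate 1 above replicate 2. Cfb, complement factor B, was 34.9 and 27.3 FPKM in type I and 73.7 and 87.8 in type III. Cd97, an adhesion-type receptor that binds Cd55, fell from 31.6 and 33.7 to 11.3 and 8.64. Cfb lost its call with any library but type I replicate 1 left out (adjusted p up to 0.129), and Cd97 lost its call without type I replicate 2 or type III replicate 2 (adjusted p up to 0.0885).

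Of 52 interferon-stimulated genes, 3 rose (5.77%, beside 2.09% over all genes) and 1 fell (1.92%, beside 2.05%). Ubd, a ubiquitin-like protein induced by TNF and interferon-gamma, rose from 27.4 and 11.5 to 217 and 163 FPKM. Gbp6, a guanylate-binding protein, was 13.5 and 10.04 FPKM in type I and 43.8 and 38.4 in type III, and the transcription factor Irf8, which is also made by myeloid and B cells, 33.2 and 14.9 FPKM in type I and 75.1 and 62.2 in type III. Oas2, of the oligoadenylate synthetases, fell from 9.91 and 7.17 to 0 and 0.0706. In the TNF-receptor and NF-kB list, 2 of 45 rose. Tnfrsf11a, the receptor RANK, was 2.57 and 2.91 FPKM in type I and 12.5 and 12.9 in type III, and Traf1, an adaptor of TNF receptors, 8.25 and 4.69 FPKM in type I and 19.5 and 22.4 in type III. Gbp6 lost its call without type III replicate 1 (adjusted p 0.0635), and Irf8 lost its call with any library but type I replicate 1 left out (adjusted p up to 0.251). Tnfrsf11a lost its call without type III replicate 2 (adjusted p 0.0535), and Traf1 lost its call with any library but type I replicate 1 left out (adjusted p up to 0.129). The interferon count was 4, 3, 2 and 4 and the TNF-receptor and NF-kB count 3, 1, 1 and 0 without type I replicate 1, type I replicate 2, type III replicate 1 and type III replicate 2. None of 27 MHC class I genes and none of 13 MHC class II genes passed the limma test fitted without a replicate block, with 2 and 4 at an unadjusted p under 0.05 and medians of 0.30 (0.05 without type I replicate 2 to 0.54 without type I replicate 1) and 0.91 (0.20 without type I replicate 2 to 1.80 without type I replicate 1, 0.35 without type III replicate 1 and 1.63 without type III replicate 2). The limma test gave H2-Ab1 an adjusted p of 0.341 and B2m of 0.796. Cd74, the invariant chain of class II molecules, was 244 and 78.9 FPKM in type I and 536 and 227 in type III (adjusted p = 0.303), and H2-Ab1, 134 and 44.1 FPKM in type I and 292 and 119 in type III. In both subsets the libraries numbered 1 were higher than those numbered 2, as the macrophage, dendritic and B-cell markers were (482 and 77.4 FPKM in type I and 764 and 145 in type III). Their part in the class II values was not tested. H2-D1, a class I heavy chain whose relatives share reads with it, was 1239 and 1021 FPKM in type I and 1219.9 and 1413 in type III.

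BMP, TGF-beta and SMAD genes were called higher in 5 of 46 cases and lower in 3, with a median of 0.23 (0.05 without type III replicate 1 to 0.32, 0.07 without type I replicate 2). Ltbp2 and Tgfbi rose, as did Eng with the limits given above. Bmp4, a ligand made by thymic stroma, was 6.58 and 3.56 FPKM in type I and 41.6 and 40.4 in type III (log2 difference 2.84, SE 0.30, adjusted p = 0.00121), and Bmp6 rose by 1.23. The members that fell were Id1, an inhibitor of basic helix-loop-helix factors, from 305 and 216 to 44.3 and 47.7, Atoh8, one such factor, from 13.9 and 14 to 3.52 and 6.13, and the homeobox gene Msx1 from 6.26 and 3.54 to 0.774 and 0. Msx1 overlaps Msx1os in the files, as Cd97 overlaps Ddx39 and Tagln overlaps Pcsk7, and reads of such pairs cannot be told apart. Atoh8 lost its call with any 1 library left out (adjusted p up to 0.308), and Msx1 lost its call with any library but type III replicate 1 left out (adjusted p up to 0.174). The count was 5, 4, 5 and 4 without type I replicate 1, type I replicate 2, type III replicate 1 and type III replicate 2.

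Growth factor genes outside the VEGF family moved in both directions, 6 higher and 8 lower of 41, with a median of 0.00 (-0.12 without type III replicate 2 to 0.00 without type I replicate 1, -0.10 without type I replicate 2 and -0.09 without type III replicate 1) that turned to between -0.14 and -0.08 under the other scalings. Beside Fgf23 and Ctgf, Met, the receptor of hepatocyte growth factor, rose from 0.937 and 1.15 to 8.74 and 6.13 FPKM. Angpt2, a Tie2 ligand stored in Weibel-Palade bodies, rose by 1.54 on the log2 scale, while Pdgfb, which recruits pericytes, fell by 1.61 and Igf2 by 1.86. These last 3 were named after their values were seen. Esm1, Igfbp3, Apln and Igfbp7 fell, as given above, and Aplnr, the apelin receptor, fell by 1.98. Met lost its call with any library but type III replicate 2 left out (adjusted p up to 0.091). The count was 11, 12, 10 and 11 without type I replicate 1, type I replicate 2, type III replicate 1 and type III replicate 2.

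Guidance genes were lower in 7 of 41 cases and higher in 1, with a median of -0.27 (-0.38 to -0.28). With Sema3g, Unc5b and Efnb2, the membrane-bound semaphorins Sema7a and Sema4c fell. Sema7a went from 207 and 164 FPKM to 25 and 18.1, and Sema4c from 76.9 and 65.8 to 21.2 and 20.2. Plxnb2, a receptor of class 4 semaphorins, rose from 15.7 and 11.8 to 40.9 and 50.6. Plxnb2 lost its call with any library but type I replicate 1 left out (adjusted p up to 0.0945). The count was 6, 5, 5 and 5 without type I replicate 1, type I replicate 2, type III replicate 1 and type III replicate 2.

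Genes of G-protein signalling, sphingolipids and adhesion-type receptors were lower in 7 of 43 cases and higher in 2, with a median of -0.41 (-0.55 to -0.23 without type I replicate 1). P2ry2, a receptor of ATP and UTP, fell from 25.5 and 24.1 to 1.91 and 4.25 FPKM, and Ppap2a, a lipid phosphate phosphatase, from 77.2 and 71.4 to 21.9 and 15.2. Gprc5b was 21.7 and 18 FPKM in type I and 6.78 and 7.18 in type III. Gpr126, an adhesion-type receptor, rose from 0.303 and 0.404 to 9.09 and 8.45, and Gpr182, an atypical chemokine receptor of endothelium, from 18.2 and 15.6 to 41.3 and 49.9. Ppap2a lost its call without type I replicate 2 or type III replicate 2 (adjusted p up to 0.0754), and Gprc5b lost its call with any 1 library left out (adjusted p up to 0.134). Gpr182 lost its call with any library but type I replicate 1 left out (adjusted p up to 0.121). The count was 6, 6, 4 and 2 without type I replicate 1, type I replicate 2, type III replicate 1 and type III replicate 2.

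Of 58 vascular transcription factors, 2 rose and 5 fell, and the median of 0.05 (-0.11 without type I replicate 2 to 0.10 without type I replicate 1, 0.01 without type III replicate 1 and -0.01 without type III replicate 2) turned below 0 under each of the other scalings. Foxc1, a forkhead factor, rose from 6.97 and 4.98 to 31.9 and 40.6 FPKM, and Gata6, a zinc finger factor, from 2.87 and 1.19 to 12.9 and 18.7. Tbx3, a T-box factor, fell from 13.6 and 12.2 to 1.46 and 2.72. Of the SOX family, Sox17 was 40.7 and 30.00 FPKM in type I and 10.01 and 11 in type III, and Sox13 was 27.6 and 29.9 FPKM in type I and 12.2 and 10.9 in type III. Gata6 lost its call without type III replicate 2 (adjusted p 0.0529), and Sox17 lost its call without type III replicate 1 or type III replicate 2 (adjusted p up to 0.0722). Sox13 lost its call with any 1 library left out (adjusted p up to 0.146). The count was 6, 5, 4 and 3 without type I replicate 1, type I replicate 2, type III replicate 1 and type III replicate 2. None of 12 Kruppel-like factors, which respond to flow, passed the limma test (4 at an unadjusted p under 0.05), with a median of -0.43 (-0.57 to -0.31). The most abundant were Klf2, at 189.7 and 184 FPKM in type I and 123 and 198 in type III (adjusted p = 0.791), and Klf4, at 152 and 139 FPKM in type I and 130.1 and 154 in type III (adjusted p = 0.973). Immediate early genes, which can rise during tissue digestion, were called in 2 of 38 cases, both lower. Dusp1, a phosphatase of MAP kinases, was 307 and 286 FPKM in type I and 111 and 139 in type III, and the nuclear receptor Nr4a1, 139.8 and 116 FPKM in type I and 59.6 and 59.8 in type III. Dusp1 lost its call without type III replicate 1 or type III replicate 2 (adjusted p up to 0.168), and Nr4a1 lost its call with any library but type I replicate 2 left out (adjusted p up to 0.191). The immediate early count was 1, 3, 0 and 0 without type I replicate 1, type I replicate 2, type III replicate 1 and type III replicate 2.

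Factors by which stroma is known to support thymocytes were called in 4 of 14 cases, 2 in each direction. Bmp4 rose, and so did Rspo3, a secreted enhancer of Wnt signalling, from 0.145 and 0 to 4.67 and 2.47 FPKM. Cxcl12, a chemokine of progenitors, fell from 521 and 360.2 to 50.6 and 36.8, and the Notch ligand Dll4 from 49.8 and 53.6 to 18.6 and 18.9. Rspo3 was also the 1 member called of 33 Wnt pathway genes. The abundant Ctnnb1, which encodes beta-catenin, was 209 and 144 FPKM in type I and 148 and 127 in type III, and Lrp5, a Wnt co-receptor, was 54.5 and 64.4 FPKM in type I and 54.4 and 84.4 in type III. Neither passed. Rspo3 lost its call with any library but type III replicate 2 left out (adjusted p up to 0.188), and Dll4 lost its call with any library but type I replicate 1 left out (adjusted p up to 0.0863). The niche count was 3, 2, 2 and 3 and the Wnt count 0, 0, 0 and 1 without type I replicate 1, type I replicate 2, type III replicate 1 and type III replicate 2.

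In the actin and contractile list, 4 of 45 rose and 3 fell. Nes, the intermediate filament protein nestin, fell from 34.8 and 39.8 to 3.07 and 3.45 FPKM, Ablim3, an actin-binding protein, from 67.6 and 63.8 to 11.4 and 12, and Fscn1, the actin-bundling fascin, from 159.8 and 147 to 61.1 and 52.5. Tagln, an actin-binding protein of smooth muscle, was 33.6 and 23.8 FPKM in type I and 77.2 and 100.5 in type III, with the type II libraries higher still at 114 and 137. Acta2, the smooth muscle actin, stood at 13.7 and 7.53 FPKM in type I and 16.9 and 33.8 in type III and did not pass. Actn1, which cross-links actin, was 50.6 and 41.9 FPKM in type I and 89.6 and 109 in type III, and Tmsb10, which binds actin monomers, 251 and 192 FPKM in type I and 543 and 435 in type III. The part of smooth muscle cells in these values was not tested. Tagln lost its call without type I replicate 2 or type III replicate 2 (adjusted p up to 0.0958), and Fscn1 lost its call without type III replicate 1 or type III replicate 2 (adjusted p up to 0.0895). Actn1 lost its call with any 1 library left out (adjusted p up to 0.23), and Tmsb10 lost its call with any library but type I replicate 1 left out (adjusted p up to 0.274). The count was 7, 3, 3 and 2 without type I replicate 1, type I replicate 2, type III replicate 1 and type III replicate 2.

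Among 30 tested genes of the Ly6 family and of other proteins anchored by a glycolipid, 7 fell and 4 rose. Beside Ly6c1, Gpihbp1, Alpl and Cdh13, the fall included Art3, of the ADP-ribosyltransferase family, from 18.5 and 11.1 to 0.986 and 2.09 FPKM. Art3 spans the chemokine genes Cxcl10 and Cxcl11 in the files, and reads of Cxcl10 were more abundant. Ly6a, the stem-cell antigen Sca-1 and a neighbour of Ly6c1, fell from 599 and 414 to 205 and 150.1. Bst1, Cd55, Procr and Art4 rose. The list therefore held genes of both directions, and its median was 0.01 (-0.21 without type I replicate 2 to 0.35 without type I replicate 1, 0.03 without type III replicate 1 and 0.27 without type III replicate 2). The count was 10, 9, 6 and 7 without type I replicate 1, type I replicate 2, type III replicate 1 and type III replicate 2.

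Of 24 glycolysis genes only Slc2a1 passed, and the abundant Pkm, pyruvate kinase, stood at 129 and 112 FPKM in type I and 207 and 263 in type III (adjusted p = 0.0577). Pkm passed under quantile normalization (adjusted p = 0.0368) and under the stricter filter of 5 FPKM (adjusted p = 0.0446). Gapdh stood at 324 and 235 FPKM in type I and 345 and 348 in type III. None of 49 subunits of oxidative phosphorylation passed the limma test (0 at an unadjusted p under 0.05). Cox4i1, of cytochrome c oxidase, was 203 and 176 FPKM in type I and 211 and 199.5 in type III (adjusted p = 0.902). Of 53 cytosolic ribosomal protein genes, Rps3 alone was called, at 181 and 125 FPKM in type I and 506 and 452 in type III, while Rplp1 stood at 794 and 656 FPKM in type I and 833 and 865 in type III. Rps14 stood at 829.5 and 621 FPKM in type I and 858 and 776 in type III. Rps3 holds the small nucleolar RNA Snord15b within its span. The ribosomal list had a median of 0.46 (0.24 without type I replicate 2 to 0.71 without type I replicate 1). Of its 53 members, 51 were above 0 and 2 below, while 6730 of all 11717 genes tested were above 0. In 32 members both type III libraries lay above both type I libraries, as in 2430 of all genes tested. In the limma test, 14 members had an unadjusted p under 0.05, beside 1648 of all genes tested. Rps3 lost its call without type III replicate 1 or type III replicate 2 (adjusted p up to 0.0703). Its list had 3, 1, 0 and 0 called genes without type I replicate 1, type I replicate 2, type III replicate 1 and type III replicate 2. None of 42 cell cycle genes passed the limma test (2 at an unadjusted p under 0.05), with a median of -0.05 (-0.14 without type III replicate 1 to 0.07 without type III replicate 2, 0.01 without type I replicate 1 and -0.09 without type I replicate 2). Cdkn1a, a cell cycle inhibitor, was 168 and 139 FPKM in type I and 80.5 and 96.6 in type III (adjusted p = 0.164). It passed, as lower, after rescaling (adjusted p = 0.0334) and under quantile normalization (adjusted p = 0.0302). Pcna, of the replication fork, was 78.1 and 58 FPKM in type I and 70.4 and 48.1 in type III (adjusted p = 0.842).

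Some called genes were neighbours. Along the chromosomes, as ordered by the files, 78 of the called genes stood next to another tested gene called in the same direction, in 36 runs, 17 of genes that rose and 19 of genes that fell. In 6 runs the spans of neighbours overlapped, so that reads could be shared. The longest run held 4 genes on chromosome 12, the serine protease inhibitors Serpina1b, Serpina1e, Serpina3f and Serpina3g, with log2 differences of 1.73, 3.58, 2.38 and 2.80. These belong to a family of near-identical copies and are uncertain for that reason. Fads2 and Fads3, desaturases of fatty acids on chromosome 19, fell by 1.90 and 1.96 on the log2 scale, and Col4a1 and Col4a2, which share a promoter region on chromosome 8, by 1.29 and 1.37. Nov, a matricellular relative of Ctgf, and Enpp2, the enzyme autotaxin that makes lysophosphatidic acid, rose together on chromosome 15, by 2.01 and 2.60. Thbd and Cd93 fell together on chromosome 2. These runs were named after their values were seen, and no test of the order was made.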

How the data were processed

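RNA of CD31+CD45-EpCAM- cells from mouse thymus, sorted into 3 subsets by Ly6C and P-selectin, was sequenced with 2 libraries per subset. Per the labels and the submitters' processing notes, the authors called bases with CASAVA 1.8, aligned reads to mm9 with TopHat2 2.0.10, ran Cufflinks 2.1.1 and named Cuffdiff. The annotation and the strand setting are not given in the sources used here. The deposited values were FPKM per gene, with 95% intervals, so no count test was run. Of 24457 rows on chromosomes, the 11717 that reached 1 FPKM in 2 or more of the 6 libraries were tested (95 rows off the chromosomes were left out). Differences are on the scale of log2(FPKM + 1), which understates the change of low genes and depends on the pseudocount of 1.

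limma 3.58.1 (R 4.3.3) fitted a mean per subset to all 6 libraries, with a trend in the prior variance, and adjusted p-values over all genes by the Benjamini-Hochberg method. An adjusted p comes from that fit unless a left-out library, a scaling, a filter or a replicate block is named beside it. In those cases limma was fitted again in the way named. All tests were two-sided, with 0.05 as the threshold. The script was also run on simulated data with known changes. The simulated spread was shuffled between genes and held no shared replicate effect, so the run does not measure error rates in these libraries. Depth was estimated from the width of the deposited intervals, taken as counting error alone. An interval that is wider for another reason gives too low an estimate.

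Genes were named by a rule: the sort genes Selp and Ly6c1, the 15 largest rises and 15 largest falls among called genes with a mean of at least 10 FPKM in the higher subset and no overlap, up to 6 called members of each list by size of change, or the 2 most abundant where fewer than 2 were called, and the markers of other cells. Others are said to be named after their values were seen or belong to the listed call counts. The members and lists were chosen with earlier results of these data known. Alternatives varied the pseudocount, the filter, the scaling, the model and the libraries, and median centring with a replicate block was added after seeing the data. Promoter letters came from RefSeq windows of GRCm38.p6 matched by symbol, 8803 of the genes tested having 1 or more, and were not set against mm9 coordinates.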

Additional observations from a re-analysis of the deposited data

Results flagged for a closer look

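Signal was found in rows that belong to no mouse gene and entered no comparison. A row named RGC-mRFP, after a red fluorescent protein, stood at 18.2 FPKM in type I replicate 1 (31.9 fragments) and at 1.83 in type I replicate 2 (4 fragments). In type II it was 23.7 in replicate 1 (31 fragments) and 5.31 in replicate 2 (11 fragments). In type III it was 28.3 in replicate 1 (34.2 fragments) and 3.23 in replicate 2 (7 fragments). A second such row, RGC-GFP, stood at 1.76 FPKM in type I replicate 1 (3 fragments), 0.938 in type I replicate 2 (2 fragments), 2.36 in type II replicate 1 (3 fragments), 0 in type II replicate 2, 0.831 in type III replicate 1 (1 fragment) and 2.37 in type III replicate 2 (5 fragments). Of these, the last alone was above 3 fragments. All 6 RGC-mRFP values stood for 4 or more fragments, and replicate 1 was the higher in each subset. No background level for such rows was measured. The labels call the mice wild-type, and the source of these values was not tested.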

How the results depend on the processing

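The labels number the libraries 1 and 2 in each subset without saying that a number marks a shared batch, and deviations from the subset means correlated at 0.2 (types I and II), 0.31 (types I and III) and 0.18 (types II and III) between libraries of the same number. With the replicate number as a block, 971 genes were called, 515 higher and 456 lower, among them all 485 called without it. The block also brought Cd74 (adjusted p = 0.0135), H2-Ab1 (0.0114) and Pkm (0.0159) past the threshold. With median centring and the block together, added after seeing the data, the counts were 1150, 548 and 602, and Cd74 (0.00796), H2-Ab1 (0.00669), Pkm (0.0103) and Cdkn1a (0.0314) passed. Without the filter on low values 317 genes were called, 149 of them lower. The genes called lower numbered 400 after rescaling to an equal sum, 381 under quantile normalization and 381 under median centring. Leaving out 1 library at a time gave 209 to 344 called genes, 109 to 231 higher and 99 to 131 lower, with fewer samples in each fit. The remaining counts were within 1.5 times those given. Of 138 named called genes, 77 passed in all 4 of these fits and 14 in none, and none changed direction under any alternative. The number kept was 110 without type I replicate 1, 100 without type I replicate 2, 91 without type III replicate 1 and 88 without type III replicate 2.

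Among genes that were not called, the sign changed for Cox4i1, to -0.015 after rescaling and -0.109 under quantile normalization. It also changed when 1 library was left out, for B2m and Rps14 without type I replicate 2, for Klf4 and Pcna without type I replicate 1, for Klf2 and Klf4 without type III replicate 1, and for Lrp5 and Pcna without type III replicate 2. The log2 differences in these fits ranged over -0.078 to 0.700 for B2m, -0.604 to 0.086 for Klf2, -0.157 to 0.082 for Klf4, -0.121 to 0.503 for Lrp5, -0.475 to 0.064 for Pcna and -0.024 to 0.394 for Rps14. The cause was not tested. Depth limits genes of low FPKM, since 3 fragments stood for a median of 0.4 to 0.72 FPKM.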
